A study of Mus musculus with 7 samples.

Results

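Ovulation and the expansion of the cumulus, the granulosa cells around the oocyte, were followed here through 10 genes, namely the EGF-like ligands Areg, Ereg and Btc, their receptor Egfr, the matrix genes Has2, Ptx3, Tnfaip6 and Vcan, and the secreted proteases Adamts1 and Adamts4. They were chosen by name for their known roles and were looked up among the 55487 Ensembl gene identifiers of the count files with the GENCODE M21 annotation of mm10. All 10 were found, and all 10 were among the 18779 genes with enough counts to be tested. At diestrus, Vcan, Egfr and Adamts1 had from 1685 to 10013 counts in every ovary library, whereas Has2, Ptx3, Tnfaip6, Areg and Ereg had from 10 to 104. In the comparison of PAMH F3 with CNTR ovaries, 0 of the 10 genes passed the threshold, and the CPM of the groups overlapped for all 10. Of all 18779 genes, 0 passed it as well, and the groups did not overlap for 4.25%, so neither count sets the 10 genes apart.

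The gonadotropin surge acts on the outer granulosa cells of the preovulatory follicle, which carry the LH receptor. These cells release the EGF-like ligands, which are made as membrane-bound precursors and cut free by a sheddase, and the ligands act on the EGF receptor of cumulus cells. Cumulus cells then build a matrix of hyaluronan that is held together by the proteins encoded by Tnfaip6, Ptx3 and Vcan, while secreted proteases remodel it and the follicle wall. In the mouse most of these transcripts are known as brief ones that follow the surge, and diestrus lies away from the surge.

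Whole ovaries were dissected at postnatal day 60, at diestrus, from C57BL/6J mice, and each library is a separate sample by the labels. The 3 CNTR mice were offspring of dams that received PBS during gestation. The 4 PAMH F3 mice were the third generation descended from F0 dams that were given human recombinant anti-Müllerian hormone (AMH), 0.12 mg/kg daily between E16.5 and E18.5 of gestation, with no further treatment of the later generations. By the study's account the CNTR mice were of the first generation, so that group and generation cannot be told apart. The labels give the injections as subcutaneous and the study's methods as intraperitoneal. The model is used for the polycystic ovary syndrome, and the comparison asks how the ovary of untreated descendants differs from that of controls. Poly(A) RNA of the whole ovary was counted, so for every gene below fewer cells of a type and less RNA per cell cannot be told apart.

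Between 32158174 and 35485021 alignments per library were counted on genes, with a median of 33088192. Levels are given as CPM, read counts scaled to the size of the library after TMM normalization, which allows for unequal RNA composition. They were compared with edgeR's quasi-likelihood F test, which here also fitted 2 surrogate variables, covariates estimated from the counts themselves to take up unwanted variation. Adjustment was by Benjamini-Hochberg over all 18779 genes, and an adjusted p of at most 0.05 was the threshold. Granulosa markers summed to between 3185 and 5738 CPM per library. Theca markers, which include Cyp11a1, a luteal marker here as well, summed to between 5682.5 and 8455.4 CPM. Within these lists Sult1e1 of granulosa lay between 0 and 0.25 CPM and Insl3 of theca between 0 and 0.15 CPM. Markers of tissue next to the ovary were present in every library, with the 5 adipocyte markers at 99.8 to 769 CPM in sum and the 5 oviduct epithelium markers at 2597 to 6473 CPM. The 6 markers of mesothelium and of the surface epithelium, which belongs to the ovary, summed to 422 to 694 CPM.

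The 3 ligand genes lie in 1 cluster on mouse chromosome 5, in the order Ereg, Areg and Btc, with the related ligand gene Epgn ahead of them. In mm10 Ereg (ENSMUSG00000029377) spans positions 91074622 to 91093646, Areg (ENSMUSG00000029378) spans 91139599 to 91148432, and Btc (ENSMUSG00000082361) spans 91357261 to 91402994 on the other strand. The gap between Ereg and Areg is 45952 bases and that between Areg and Btc is 208828 bases. The surge acts through cyclic AMP, and the cyclic AMP response element, TGACGTCA, is the DNA motif that the factor CREB binds. RefSeq promoter sequence of GRCm38.p6, here the 250 bases before the start of a gene, was at hand for 7 of the 10 genes, not including Has2, Ereg and Adamts4. The full element, which reads alike on both strands, was in the promoter of Areg alone among the 7 and in 1.55% of all 32851 promoters. The shorter TGACG, searched on both strands and contained in the full element, was in 3 of the 7, those of Areg, Btc and Adamts1, and in 17.8% of all promoters. The letters TATAAA, searched on the strand of the gene, were in the promoters of Areg and Adamts1 and in 7.59% of all promoters. A window of 60 bases around each match shows how the 3 sequences differ, with the motif in capitals and each written 5′ to 3′ on the strand of its gene.
Areg, chr5:91139512-91139571, plus strand: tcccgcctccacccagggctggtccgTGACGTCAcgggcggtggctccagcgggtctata
Btc, chr5:91403075-91403134, minus strand: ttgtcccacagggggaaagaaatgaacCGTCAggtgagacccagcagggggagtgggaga
Adamts1, chr16:85803251-85803310, minus strand: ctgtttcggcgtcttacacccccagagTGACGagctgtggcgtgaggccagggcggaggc
The element of Areg begins 61 bases before the start of the gene, whereas the shorter match begins 113 bases before Btc, where it is read on the opposite strand, and 170 bases before Adamts1. These matches are of letters only, and binding was not measured.

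Amphiregulin, encoded by Areg, is an EGF-like ligand that passes the surge signal from mural granulosa cells to the cumulus. Areg had from 66 to 104 counts per library. It was at 1.99, 2.97 and 2.75 CPM in CNTR 1, 2 and 3, and at 2.44, 2.56, 2.90 and 3.23 CPM in PAMH F3 1, 2, 3 and 4. The lowest value was that of CNTR 1 and the highest that of PAMH F3 4, and the other libraries of the groups were interleaved. The means were 2.57 ± 0.516 CPM (SD, n = 3) and 2.78 ± 0.357 CPM (SD, n = 4). The fitted log2 fold change was 0.25 (SE 0.18, 95% interval -0.16 to 0.67), with an edgeR adjusted p of 0.781, and 0.12 without surrogate variables.

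Epiregulin, the product of Ereg, is the ligand known to be released along with amphiregulin. Ereg had 70 to 85 counts per library, and its highest library was 1.22 times its lowest in CPM, the narrowest range of the 10 genes. It stood at 2.56, 2.25 and 2.44 CPM in the CNTR libraries and at 2.10, 2.11, 2.09 and 2.41 CPM in the PAMH F3 libraries, in the order of their numbers. Of the PAMH F3 libraries, 3 lay below every CNTR library, and the remaining one, PAMH F3 4, lay within the CNTR range. The fitted log2 fold change of Ereg was -0.18 (SE 0.17, interval -0.58 to 0.21), with an edgeR adjusted p of 0.832. The spread of Ereg over the 7 libraries, a coefficient of variation of 8.47%, was below the 11.4% that counting error alone gives at its mean count. The opposite-strand gene Gm19610, which overlaps Ereg, had 16 to 35 counts, and whether counting took account of strand is not given in the sources used here.

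Betacellulin, encoded by Btc, also binds the EGF receptor and completes the set of ligands induced by the surge. Btc was measured at 4.40, 2.58 and 3.25 CPM in CNTR 1, 2 and 3 and at 3.91, 2.62, 3.43 and 3.26 CPM in PAMH F3 1, 2, 3 and 4. The CNTR libraries held both the lowest and the highest value, so the PAMH F3 range lay inside the CNTR range. Its fitted log2 fold change was -0.17 (SE 0.18, interval -0.60 to 0.26), with an edgeR adjusted p of 0.864, and -0.04 without surrogate variables. Epgn, the neighbor of Ereg, was at most at 0.188 CPM in any library and was too low to be tested.

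Egfr encodes the receptor for these ligands, and it was the one gene of the 10 with an unadjusted p under 0.05 in the main comparison. It spans positions 16752203 to 16918158 of mouse chromosome 11 (ENSMUSG00000020122) and had 2281 to 3067 counts per library. Egfr was at 68.7, 79.3 and 81.3 CPM in the CNTR libraries and at 86.9, 82.2, 74.1 and 95.2 CPM in the PAMH F3 libraries. All PAMH F3 libraries but PAMH F3 3 were above every CNTR library. CNTR averaged 76.4 ± 6.74 CPM (SD, n = 3), and PAMH F3 averaged 84.6 ± 8.81 CPM (SD, n = 4). The log2 fold change was 0.18 (SE 0.07, interval 0.0036 to 0.35), with an edgeR p of 0.0465 before and 0.645 after adjustment. Without surrogate variables the log2 fold change was 0.15 and the unadjusted edgeR p was 0.172, and with 1 surrogate variable that p was 0.138. DESeq2 with the same 2 surrogate variables gave Egfr an unadjusted p of 0.0663, so the call at the unadjusted level held neither without them nor in the other tool.

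Hyaluronan synthase 2, the product of Has2, spins out the hyaluronan of the expanded cumulus, and Has2 was the least abundant of the 10 genes. It lies on mouse chromosome 15 from 56665627 to 56694539 (ENSMUSG00000022367) and had 32, 10 and 16 counts in CNTR 1, 2 and 3. In PAMH F3 1, 2, 3 and 4 it had 19, 10, 12 and 27 counts. On the CPM scale these were 0.964, 0.300 and 0.495 in CNTR and 0.538, 0.301, 0.335 and 0.847 in PAMH F3. Each group thus held a high library, CNTR 1 and PAMH F3 4, and at least 1 library near 0.3 CPM. Between the highest and the lowest library the fold was 3.21, the largest of the 10 genes, and the coefficient of variation of 49.7% was above the 23.6% of counting error. The fitted log2 fold change of -0.49 had an SE of 0.33 and an interval of -1.26 to 0.29, with an edgeR adjusted p of 0.776, and without surrogate variables it was -0.22. The libraries highest in Has2 stood at opposite ends for adipocyte markers, which summed to 769 CPM in CNTR 1 and to 99.8 CPM in PAMH F3 4, the highest and the lowest sums. The same libraries held the highest and the lowest sums of the surface epithelium and mesothelium markers. The part of adjacent tissue in the levels of Has2 was not tested.

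Pentraxin 3, encoded by Ptx3, is a multimeric protein that cross-links the hyaluronan matrix. Ptx3 (ENSMUSG00000027832, chromosome 3 from 66219910 to 66225805) had counts of 67, 103 and 92 in CNTR and of 82, 59, 50 and 48 in PAMH F3. Its levels were 2.02, 3.09 and 2.85 CPM in CNTR and 2.32, 1.78, 1.39 and 1.51 CPM in PAMH F3. PAMH F3 1 lay above CNTR 1, and the remaining PAMH F3 libraries lay below every CNTR library. CNTR averaged 2.65 ± 0.562 CPM (SD, n = 3), and PAMH F3 averaged 1.75 ± 0.415 CPM (SD, n = 4), a ratio of 0.660. The model gave a log2 fold change of -0.49 (SE 0.26, interval -1.11 to 0.13), with an edgeR adjusted p of 0.715. Without surrogate variables it was -0.59, with an edgeR p of 0.0362 before and 0.994 after adjustment. Veph1, an opposite-strand gene that overlaps Ptx3, had 46 to 133 counts per library, against 48 to 103 for Ptx3.

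Tnfaip6 encodes TSG-6, which transfers heavy chains of inter-alpha-trypsin inhibitor onto hyaluronan. Tnfaip6 (ENSMUSG00000053475, chromosome 2 from 52038009 to 52056686) was at 2.02, 1.95 and 0.928 CPM in the CNTR libraries and at 2.04, 2.17, 1.65 and 1.85 CPM in the PAMH F3 libraries. Its CNTR spread came from CNTR 3, which had 30 counts where the other libraries had 59 to 72. For Tnfaip6 the log2 fold change was 0.22 (SE 0.26, interval -0.38 to 0.83), with an edgeR adjusted p of 0.872. CNTR 3 also had the highest sum of granulosa markers, 5738 CPM. Over the whole list these markers summed to 3185 to 5738 CPM in CNTR and 3978 to 5623 CPM in PAMH F3, 7 of the 9 tested had a positive log2 fold change, against 3 of the 9 without surrogate variables, and 0 passed the threshold. The median of the granulosa list was 0.095 with and -0.050 without surrogate variables. Of luteal markers, 0 of 7 had a positive log2 fold change with surrogate variables and 1 of 7 without. Of endothelial markers it was 0 of 6 in both fits. With surrogate variables it was 2 of 4 theca, 3 of 10 oocyte, 3 of 9 leukocyte, 2 of 5 smooth muscle and 2 of 5 stromal fibroblast markers. In these lists 0 passed the threshold, and of all genes 52.2% had a positive log2 fold change with surrogate variables. At an unadjusted edgeR p under 0.05, 2 luteal and 2 endothelial markers were lower and 1 theca marker was higher. Of granulosa markers 2 were higher and 2 lower at that p, and of all genes 7.63% reached it. The part of cell composition in the level of Tnfaip6 was not tested.

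Versican, the large hyaluronan-binding proteoglycan encoded by Vcan, was the most abundant of the matrix genes. Vcan (ENSMUSG00000021614, chromosome 13 from 89655312 to 89742509) was at 301.7, 171.4 and 261.2 CPM in CNTR and at 232.4, 255.2, 147.7 and 240.1 CPM in PAMH F3. Both groups held a low library, CNTR 2 and PAMH F3 3. The means were 244.8 ± 66.7 CPM (SD, n = 3) and 218.8 ± 48.3 CPM (SD, n = 4). At 5296 to 10013 counts per library its counting error was 1.14%, so that the coefficient of variation of 23.2% over the 7 libraries was almost wholly a spread between libraries. The fit put the log2 fold change of Vcan at -0.30 (SE 0.14, interval -0.63 to 0.04), with an edgeR adjusted p of 0.683, and without surrogate variables it was -0.16.

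Adamts1 and Adamts4 encode secreted metalloproteases that cut versican and related proteoglycans. Adamts1 (ENSMUSG00000022893, chromosome 16 from 85793827 to 85803113), which in granulosa cells depends on the progesterone receptor, was at 52.2, 50.6 and 76.6 CPM in CNTR. In PAMH F3 it was at 65.5, 70.0, 48.7 and 66.8 CPM. CNTR 3 was the highest library and PAMH F3 3 the lowest, and the groups overlapped throughout. Adamts1 had a log2 fold change of 0.09 (SE 0.11, interval -0.16 to 0.35), with an edgeR adjusted p of 0.873.

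Adamts4 (ENSMUSG00000006403, chromosome 1 from 171250421 to 171260637) was at 7.32, 15.4 and 10.4 CPM in CNTR and at 8.44, 8.13, 8.90 and 5.14 CPM in PAMH F3. CNTR 2 was highest, at 2.99 times PAMH F3 4, the lowest. The means, 11.0 ± 4.07 CPM (SD, n = 3) for CNTR and 7.65 ± 1.70 CPM (SD, n = 4) for PAMH F3, differed by less than the SD of CNTR. In the model the log2 fold change was -0.27 (SE 0.19, interval -0.72 to 0.17), with an edgeR adjusted p of 0.781, and without surrogate variables it was -0.52, with an unadjusted p of 0.0844.

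**Figure D1:**
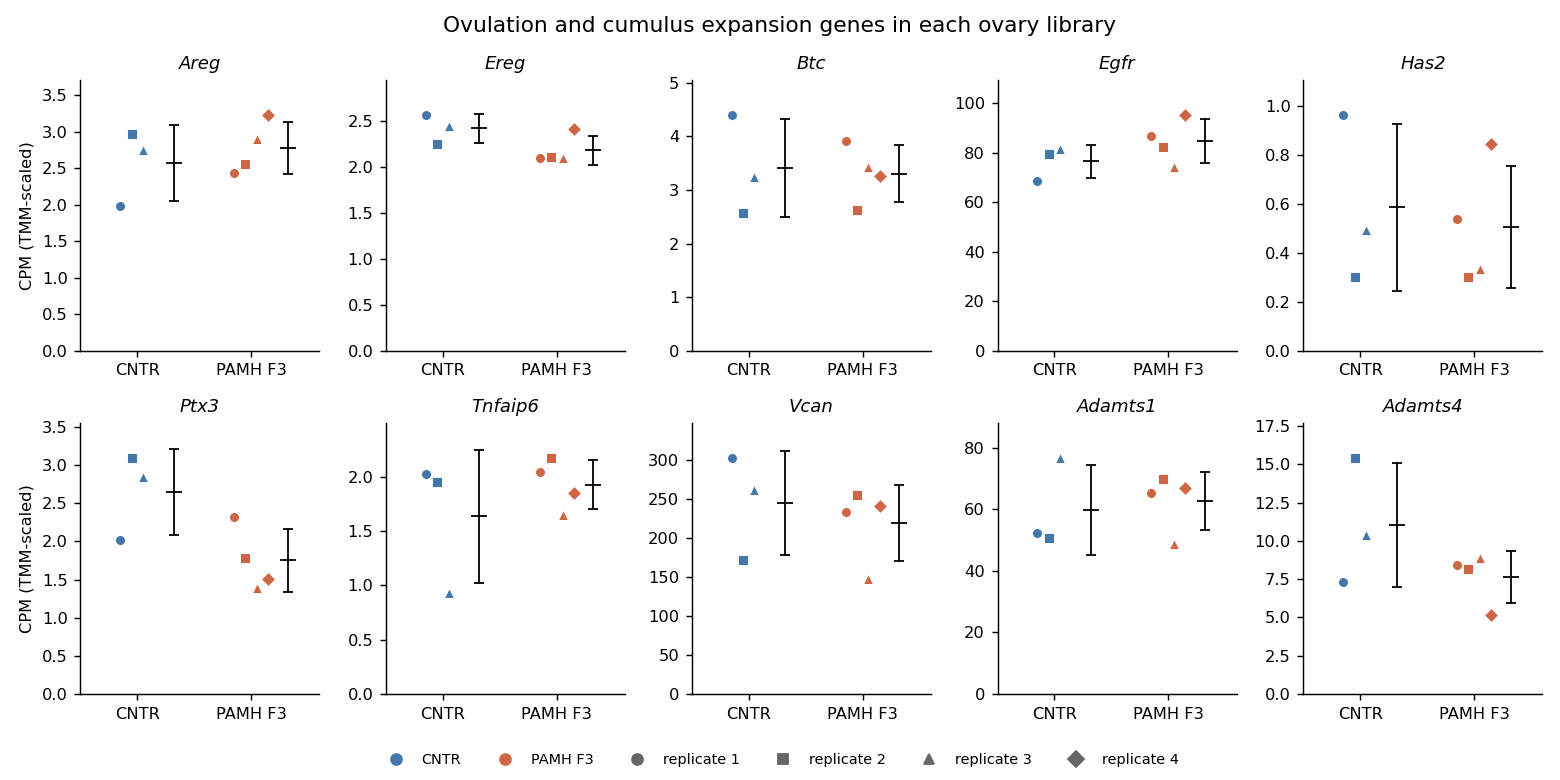
CPM after TMM scaling (vertical axes, from 0) of each of the 10 genes in the 3 CNTR and 4 PAMH F3 ovary libraries, with a marker shape for each replicate number and the group mean and SD drawn beside the points. The groups overlap for all 10 genes, and CNTR 1 and PAMH F3 4 stand above the other libraries for Has2.

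To compare levels between genes, CPM was divided by the length of exon sequence in kilobases. On this scale Vcan led with a mean of 15.9 ± 3.69 (SD, n = 7), followed by Adamts1 at 11.6 ± 2.06 and Egfr at 7.16 ± 0.754. Areg was at 2.22 ± 0.334 and Adamts4 at 1.89 ± 0.665 CPM per kilobase. Tnfaip6 was at 1.05, Ptx3 at 0.797, Btc at 0.741 and Ereg at 0.553 CPM per kilobase, and Has2 was last at 0.127 ± 0.0634. Among neighbors in this order, the ranges over the 7 libraries were apart only between Adamts1 and Egfr, between Egfr and Areg, and between Ereg and Has2. The steps between them were 1.62-fold, 3.23-fold and 4.34-fold. Vcan was above Adamts1 and Btc above Ereg in 7 of 7 libraries although their ranges overlapped, whereas Ptx3 was above Btc in only 4 of 7. Against all tested genes by the same measure, Vcan stood at percentile 80.5, Adamts1 at 73.0 and Egfr at 60.9, while the ligands and the other matrix genes stood between 3.60 for Has2 and 36.4 for Areg. The receptor was thus more abundant per length than each of its 3 ligands in every library, and Vcan more than the other matrix genes.

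**Figure D2:**
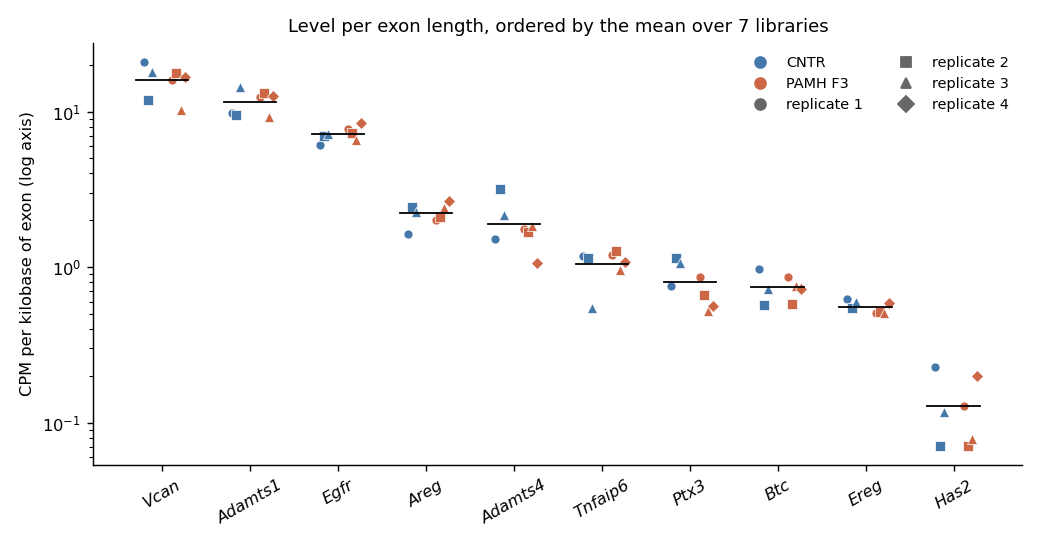
CPM per kilobase of exon (log axis) for the 10 genes ordered by their mean over the 7 libraries, drawn as a horizontal line, with points for the CNTR and PAMH F3 libraries. Vcan, Adamts1 and Egfr lie above every library of the other 7 genes, and Has2 lies below every library of the other 9.

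Across the 10 genes, 0 passed the threshold, and of all genes tested 0% did, the smallest adjusted p over all genes being 0.104. At an unadjusted p under 0.05 there was 1 gene of the 10, Egfr, against 7.63% of all genes. Higher in PAMH F3 were 4 of the 10, namely Areg, Egfr, Tnfaip6 and Adamts1, against 52.2% of all genes. When no surrogate variable was fitted, the count was again 1 of the 10, against 3.89% of all genes, but the gene was Ptx3 and not Egfr. With 1 surrogate variable it was also Ptx3 (p 0.0407), and in DESeq2 with 2 it was Vcan (p 0.0476). DESeq2 with the same surrogate variables passed 0 of the 10 and 0.57% of all genes, and it gave no adjusted p for Has2, Ptx3, Tnfaip6 and Ereg. The groups did not overlap in CPM for 0 of the 10 and for 4.25% of all genes. In the two-sided exact permutation test over the 35 divisions of the libraries, whose smallest possible p is 0.0286, the p of the 10 genes ran from 0.0857 for Ptx3 and Ereg to 0.914 for Btc. With 10 genes, counts of 0 and 1 are the nearest that can be had to shares this small.

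The median log2 fold change of the 10 genes was -0.18, against 0.0067 for all genes tested, and without surrogate variables it was -0.10 against 0.0051. The median size of the fitted change was 0.24 for the 10 genes and 0.097 for all. The genes were not matched for level. All but Vcan, Egfr and Adamts1 stood at level percentiles of 3.60 to 36.4, with an SE of 0.17 to 0.33. The medians of size therefore cannot show that the 10 genes changed more than others of their level. The intervals show what differences these libraries could leave unseen. With 2 surrogate variables, a difference beyond 0.35 on the log2 scale in either direction lay outside the intervals of Egfr and Adamts1. The interval of Has2 reached down to -1.26, that of Ptx3 to -1.11 and that of Tnfaip6 up to 0.83. Without surrogate variables the upper limits were 0.37 for Egfr and 0.46 for Adamts1, so these limits depend on the fit. The coefficients of variation of Has2 and Ptx3, 49.7% and 30.5%, were above the 23.6% and 11.8% of counting error, so their spread lay in part between libraries.

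**Figure D3:**
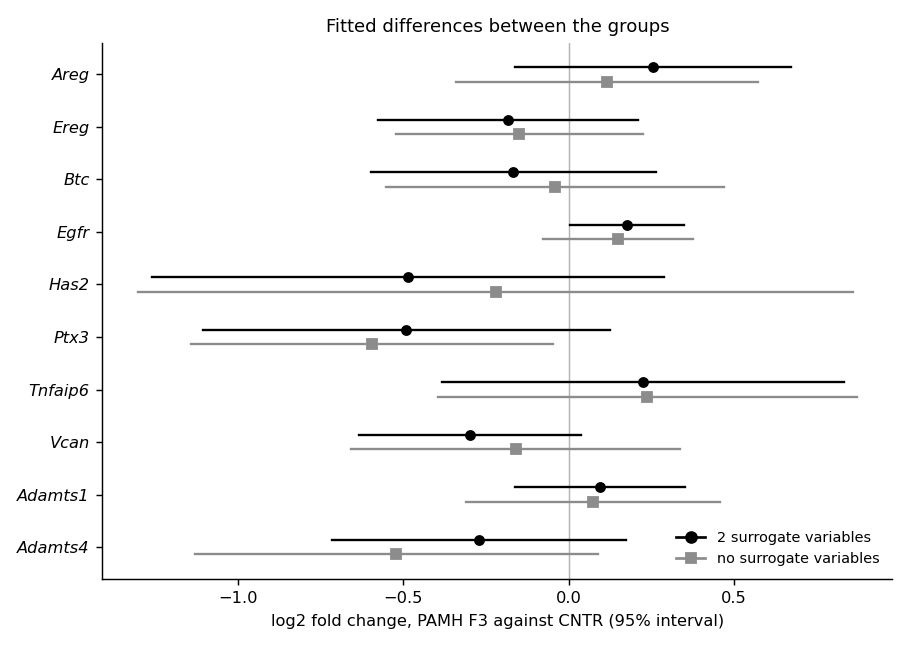
Fitted log2 fold change of PAMH F3 against CNTR for each of the 10 genes with its 95% interval, with 2 surrogate variables (black circles) and without (gray squares). With surrogate variables only the interval of Egfr, from 0.0036 to 0.35, does not include 0, and without them only that of Ptx3.

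The direction of several of these fitted values changed with a library left out, where the 2 surrogate variables were also estimated anew. Without CNTR 1, the log2 fold change of Has2 turned from -0.49 to 0.22, that of Btc from -0.17 to 0.20, that of Vcan from -0.30 to 0.026 and that of Areg from 0.25 to -0.051. Tnfaip6 turned to -0.068 without CNTR 3, and Adamts1 to -0.012 without PAMH F3 2. In mean CPM the difference of Adamts1 kept its sign without PAMH F3 2 and changed it without CNTR 1 or CNTR 2. Ereg, Egfr, Ptx3 and Adamts4 kept their direction whichever library was left out. Egfr was at 0.056 without CNTR 1 (edgeR p 0.367) against 0.18 with all libraries, and at most at 0.23, without PAMH F3 3. Ereg ran from -0.23 to -0.11. Its groups did not overlap without CNTR 2 or without PAMH F3 4, against 9.81% and 6.4% of all genes. The groups of Vcan did not overlap without CNTR 2 either, nor those of Egfr without PAMH F3 3, where the share was 9.06%. Ptx3 ran from -0.76 to -0.35, and its groups did not overlap without CNTR 1 or without PAMH F3 1, where 15.5% and 9.39% of all genes did not overlap either. Adamts4 ran from -0.71 to -0.094. Without CNTR 1 its groups did not overlap, its edgeR p was 0.00449 before and 0.120 after adjustment, and its exact permutation p was 0.0667, the smallest that 6 libraries so divided can give. CNTR 1 is the library with the highest sum of adipocyte markers. These markers summed to 247 to 769 CPM in CNTR and 99.8 to 556 CPM in PAMH F3, and none was at 0 in any library. For 5 of 5 the log2 fold change was negative, where 52.2% of all genes had a positive one, and 0 passed the threshold. The part of adjacent fat in the values of the ovulation genes was not tested. Has2 reached -0.81 without PAMH F3 4. In none of the 7 fits with a library left out did any of the 10 genes pass the threshold. Few of all genes passed there either, namely 37 of 19094 without CNTR 1, 31 of 18570 without PAMH F3 1, and 0 otherwise.

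**Figure D4:**
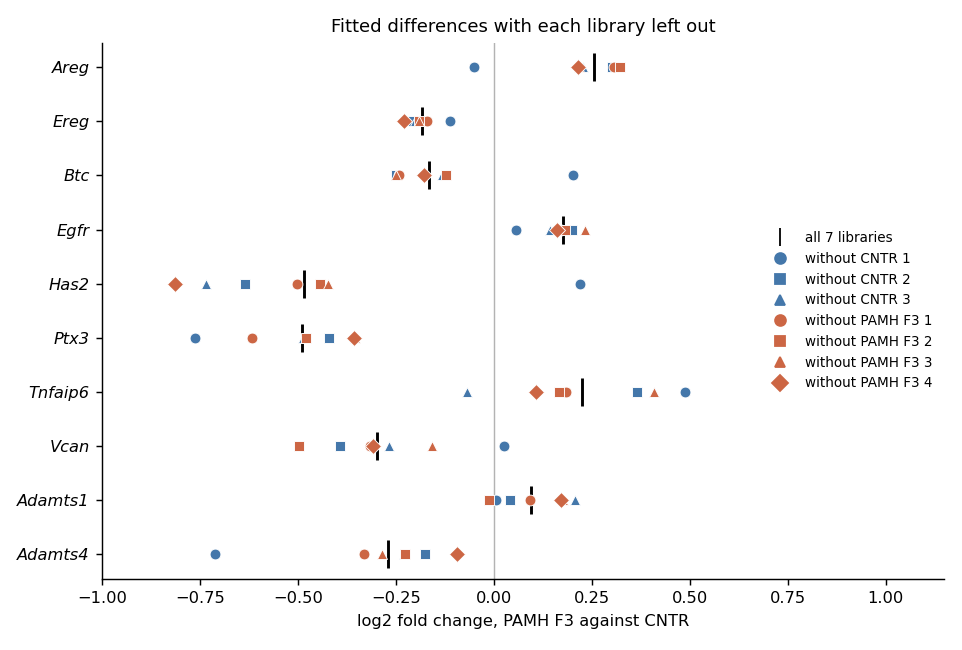
Fitted log2 fold change of PAMH F3 against CNTR for each of the 10 genes with all 7 libraries (black bar) and with each library left out in turn (points). Leaving out CNTR 1 moves Has2 from -0.49 to 0.22 and Adamts4 from -0.27 to -0.71.

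The levels of the 10 genes did not follow 1 common course over the libraries. Of the 45 pairs among them, 21 had a Pearson correlation above 0 over the 7 libraries, with a median of -0.04. The highest, 0.75, was that of Has2 with Ereg, of Has2 with Btc and of Ptx3 with Adamts4, and the lowest, -0.69, was that of Has2 with Adamts4. Over the same 7 libraries, and among 12694 genes of at least 5 CPM, the gene most like Egfr was Tbcel (r = 0.993), the one most like Adamts4 was Flywch1 (r = 0.991), and the one most like Ptx3 was S100a6 (r = 0.984). Has2 was most like Nup107 (r = 0.987), Tnfaip6 most like Tns4 (r = 0.987), Vcan most like 4930522L14Rik (r = 0.979) and Btc most like Slc25a16 (r = 0.979). For Adamts1 the gene was Dmxl2 (r = 0.978), for Areg Acot2 (r = 0.976) and for Ereg Actl6a (r = 0.959). Each of these is the highest of 12694 correlations over 7 points that share library composition and depth, and they are given as a description. Ereg was the gene with the fewest such partners, 6 with an r above 0.9, and Adamts4 the one with the most, 268.

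The genes around these 10 in the pathway were taken from 5 lists of 93 genes, of which 87 were tested. None of the 87 passed the threshold, and the smallest adjusted p was 0.369, by edgeR. At an unadjusted p under 0.05 there were 12, or 13.8% against the 7.63% of all genes, 5 of them higher and 7 lower in PAMH F3. Without surrogate variables there were 4 of the 87, against 3.89% of all genes. The groups did not overlap in CPM for 2 of the 87, against 4.25% of all genes. The median log2 fold change of the 87 was -0.0085.

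Among the 22 genes of the ovulatory trigger, 2 were higher and 1 lower at an unadjusted p under 0.05. Lhcgr, the LH receptor, was at 415 to 523 CPM in CNTR and at 308 to 502 CPM in PAMH F3 (log2 fold change -0.20). The transcription factors of the preovulatory granulosa cell, Pgr and Runx1, had log2 fold changes of 0.24 and 0.14 and edgeR adjusted p of 0.674 and 0.800. Ptgs2, the inducible cyclooxygenase that cumulus expansion needs, was at 5.21, 8.88 and 6.16 CPM in CNTR and at 11.3, 10.2, 13.7 and 8.47 CPM in PAMH F3. Its PAMH F3 libraries were above the CNTR libraries except that PAMH F3 4 lay below CNTR 2. Ptgs2 had a log2 fold change of 0.86 (SE 0.16), with an edgeR adjusted p of 0.369 and a DESeq2 adjusted p of 0.00154. Ptges, which acts after it in the synthesis of prostaglandin E, had a log2 fold change of -0.28 (edgeR adjusted p 0.522). Its CPM was 126 to 152 in CNTR and 107 to 125 in PAMH F3, with no overlap.

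In the EGF family list of 12 tested genes, 1 was higher and 2 lower at an unadjusted p under 0.05. Adam17, the sheddase that cuts the ligand precursors, was at 95.1 to 115 CPM in CNTR and 103 to 126 CPM in PAMH F3 (log2 fold change 0.06). The genes with the smallest p in this list were Lrig1 and Errfi1, which encode restraints on EGF receptor signalling, at log2 fold changes of 0.20 and -0.41 and edgeR adjusted p of 0.539 and 0.551. In the hyaluronan list of 18 tested genes, 0 were higher and 1 was lower. Hapln1, which links hyaluronan to versican, was at 0.680 to 1.83 CPM over all libraries (log2 fold change -0.19), and Cd44, the hyaluronan receptor of the cell surface, was at 41.0 to 50.6 CPM (0.11). Hyal2, a hyaluronidase, was at -0.20 on the log2 scale of fold change. Cemip, which takes part in hyaluronan breakdown, was at 263, 218 and 147 CPM in CNTR and at 245, 85.6, 40.9 and 73.8 CPM in PAMH F3 (log2 fold change -1.21, edgeR adjusted p 0.697). PAMH F3 1 lay within the CNTR range of Cemip, and the other 3 lay below it.

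The list of follicle wall proteases and their inhibitors had 22 tested genes, of which 1 was higher and 3 were lower at an unadjusted p under 0.05, with a median log2 fold change of -0.09. Timp1, an inhibitor of metalloproteases, was at 194, 158 and 298 CPM in CNTR and at 150, 81.0, 46.9 and 123 CPM in PAMH F3, without overlap. Its log2 fold change was -1.27 (SE 0.23), with an adjusted p of 0.369 by edgeR and of 0.0282 by DESeq2. Among 13 tested genes of the oocyte and its cumulus partners, 1 was higher and 0 were lower. Gdf9 and Bmp15, the oocyte factors that enable cumulus expansion, had log2 fold changes of -0.01 and 0.12. Bmpr2, the receptor for both, was at 0.31 and Nppc, the source of the peptide that holds meiosis in check, at 0.40, with edgeR adjusted p of 0.628 and 0.683.

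**Figure D5:**
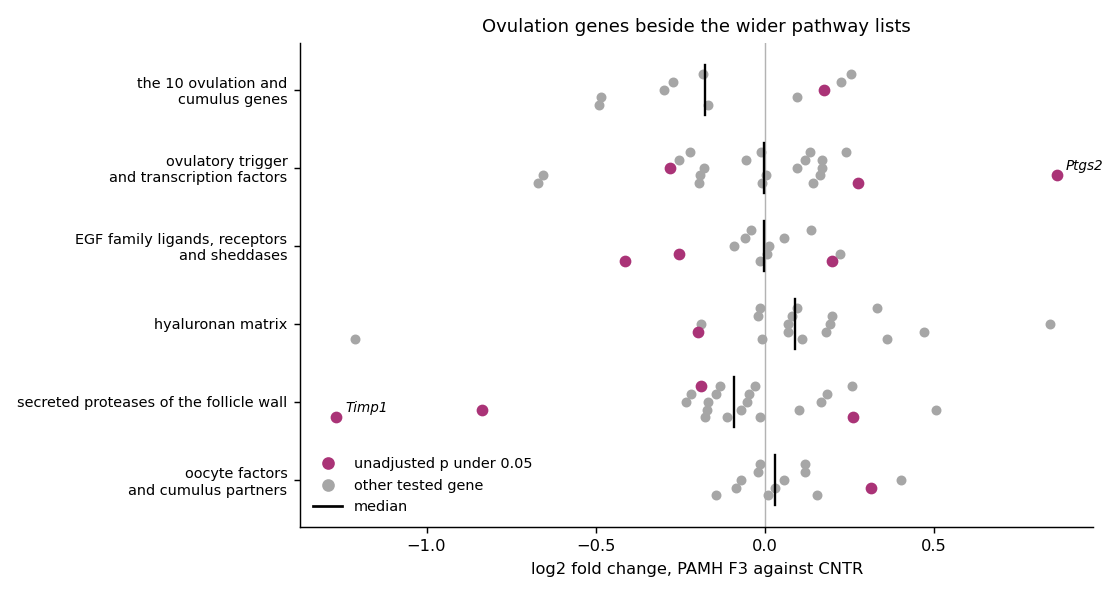
Fitted log2 fold change of PAMH F3 against CNTR for the 10 genes and for the tested genes of the 5 pathway lists, with the median of each as a vertical bar and an unadjusted edgeR p under 0.05 in color. The 10 genes lie between -0.49 and 0.25, and Ptgs2 at 0.86 and Timp1 at -1.27 lie farthest from 0 among the colored points.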

How the data were processed

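The authors sequenced stranded poly(A) libraries from whole ovaries as single reads, mapped them to mm10 with STAR 2.5.3a and counted uniquely aligned reads with HTSeq 0.6.1p1 in union mode (versions from the submitters' processing notes). The deposited values are raw counts per gene, with 5 summary lines per library that held 45.8% to 47.5% of the alignments and stayed out of every test. The Ensembl release and the strand setting of the counting are not given in the sources used here. Symbols, positions and exon lengths came from GENCODE M21, which matched 55394 of the 55487 identifiers.

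Counts were compared with edgeR 4.0.16 (TMM, filterByExpr with a minimum count of 10, glmQLFit without robust fitting) in R 4.3.3, with 2 surrogate variables from svaseq in sva 3.50.0 (20 permutations, seed 1), which left 3 residual degrees of freedom. The study's methods used DESeq2 with sva, and DESeq2 1.42.0 was an alternative here. The other alternatives changed the number of surrogate variables, the normalization, the filter on low counts, robust fitting or the replicate block, or dropped 1 library at a time. Standard errors were taken from the F statistic. The fits were also run on simulated counts drawn without added unwanted variation, and no result of that run is used here. Replicates are separate samples by the labels. The 10 genes, the lists and the tests were chosen with earlier results of these data known. Named besides the 10 genes were Lhcgr, Pgr, Ptgs2, Runx1, Adam17, Hapln1, Cd44, Gdf9 and Bmp15, the 2 genes with the smallest p in each list, any gene past the threshold, and the gene most like each of the 10 in log2 CPM (prior count 2). Overlapping genes, Epgn and marker genes were named after their values were seen. Some genes that these rules name are not reported here.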

Additional observations from a re-analysis of the deposited data

Results flagged for a closer look

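Of the 10 genes and 18 pathway genes looked at, 1 had a PAMH F3 library that stood apart from the remaining 3 by Dixon's test for 4 values at the 95% level. Ereg was at 2.41 CPM in PAMH F3 4, with the other libraries of the group between 2.09 and 2.11 CPM, and the gap was 0.951 of the range. By chance about 1 in 20 groups is flagged, and 28 genes were looked at. The counting error at the mean count of Ereg is 11.4%.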

How the results depend on the processing

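Each of the 10 genes was refitted under 17 alternatives, and in 0 of the 166 values with an adjusted p did one pass the threshold, the smallest adjusted p being 0.120 for Adamts4 without CNTR 1. Of all 170 fitted values, 6 changed sign, each with a library left out. Over these fits the log2 fold change ran from -0.81 (without PAMH F3 4) to 0.22 (without CNTR 1) for Has2, from -0.50 to 0.026 for Vcan, from -0.051 to 0.32 for Areg, from -0.25 to 0.20 for Btc, from -0.068 to 0.49 for Tnfaip6 and from -0.012 to 0.21 for Adamts1. The difference in mean CPM of the same 6 genes also changed sign with a library left out, and its two-sided exact permutation p then ran from 0.467 to 1 for Has2, from 0.200 to 1 for Vcan, from 0.333 to 0.90 for Areg, from 0.333 to 1 for Btc, from 0.267 to 0.800 for Tnfaip6 and from 0.333 to 1 for Adamts1. Genes of the set at an unadjusted p under 0.05 numbered 1 (Egfr, but Ptx3 with 0 or 1 surrogate variables and Vcan by DESeq2 with 2), and 2 with no filter on low counts, 0 with at least 10 counts required in every library, and 0 to 2 with a library left out. Those without overlap between groups numbered 0 to 2 with a library left out (2 without CNTR 1 and 2 without CNTR 2, where 15.5% and 9.81% of all genes did not overlap, and 6.09% to 15.5% over the libraries left out), and those higher in PAMH F3 3 to 6. Over all genes, 0 passed the threshold, against 107 by DESeq2 with the same surrogate variables, 6 by DESeq2 without them, 8 with no filter on low counts, and 0 to 37 with a library left out (37 without CNTR 1, 31 without PAMH F3 1). Pathway genes at an unadjusted p under 0.05 numbered 12, against 4 with no surrogate variables, 5 by DESeq2 without them, and 10 to 26 with a library left out (26 without PAMH F3 1). Of all genes, 7.63% had an unadjusted edgeR p under 0.05 in the main fit and 3.89% without surrogate variables. In the main fit 52.2% of all genes were higher in PAMH F3. For the other settings these shares are not given here. The counts at an unadjusted p under 0.05 or higher in PAMH F3 cannot be set against them there. The causes were not tested.

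The labels give replicate numbers but no shared litter or day. The correlations of the deviations of same-numbered libraries from their group means were 0.0957, 0.0965 and -0.25. Without a reference value these cannot show whether same-numbered samples shared a litter or day, and the main fit treated the samples as unpaired. With the replicate number as a block, 0 of the 10 genes and 4 pathway genes had an unadjusted p under 0.05. The share of all genes at that p in this fit is not given here.

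Depth limits the low genes most, since Has2 had as few as 10 counts in a library.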
